A study of Mus musculus with 12 samples.

Results

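The nuclear-encoded subunits of the mitochondrial respiratory chain were taken as all genes whose symbol began with Nduf and a subunit letter and number, Uqcr, Cox4 to Cox8 and a subunit letter, or Atp5, together with Sdha, Sdhb, Sdhc and Sdhd. Symbols marked as pseudogenes were removed, which dropped 6 entries, and 2 exact repeats of Ndufb4 were counted once. This left 86 of the 40406 genes in the count table: 40 of complex I, 4 of complex II, 8 of complex III, 17 of complex IV and 17 of complex V. Of the 86, 82 were annotated as protein coding and 4 (Ndufa11b, Ndufb4c, Ndufs6b and Cox6c2) as processed pseudogenes whose names the rule did not exclude. The rule left out Cox4i1, Ndufab1 and Cyc1, which encode subunits under other kinds of name, and the subunits made from mitochondrial DNA.

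RNA was sequenced from 4T1 cells, a triple-negative mammary carcinoma line of BALB/c mice. Wild-type cells exposed to docetaxel (10 nM, a taxane that stabilises microtubules) for 24 h, wild-type cells exposed to the solvent DMSO, integrin β3 knockout-labelled cells exposed to docetaxel and knockout-labelled cells exposed to DMSO were each left for 48 h without drug before harvest. Each of the 4 groups had 3 libraries, described by the labels as biological triplicates, written here as WT-DTX, WT-DMSO, KO-DTX and KO-DMSO with a replicate number. The labels do not state how the knockout was made or whether the line is 1 clone. In WT-DMSO.1 the free-text description named the knockout, whereas the title and the genotype label named the wild type, and the title and genotype label were followed. Cldn7, a tight junction gene, had 268 counts in WT-DMSO.1, against 244 to 316 in the other wild-type libraries and 1 to 6 in every knockout-labelled library. The transcript of the targeted gene, Itgb3, stood at 62.4 ± 2.8 CPM (counts scaled to a common library size) in KO-DTX, 64.7 ± 2.1 CPM in KO-DMSO, 83.1 ± 4.9 CPM in WT-DTX and 65.9 ± 5.7 CPM in WT-DMSO (SD, n = 3 each), so under DMSO the knockout-labelled cells held about as much of it as the wild type (log2 difference -0.03, edgeR adjusted p = 0.874). After docetaxel the log2 difference was -0.41 (adjusted p = 0.00765). The cells are called knockout-labelled throughout.

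The respiratory chain sits in the inner mitochondrial membrane. Complexes I and II pass electrons from NADH and succinate to ubiquinone, complex III passes them on to cytochrome c, and complex IV passes them to oxygen. Complexes I, III and IV pump protons across the membrane, and complex V, the ATP synthase, lets the protons flow back and makes ATP. Most subunits are encoded in the nucleus and imported, and a small set of core subunits of complexes I, III, IV and V is encoded in mitochondrial DNA. The factors NRF1, GABPA and YY1 are known to bind the promoters of many of the nuclear genes.

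Of the 86 members, 4 were lower in docetaxel-exposed knockout-labelled cells by the test used below, and 3 of these were also lower in docetaxel-exposed wild-type cells. Their promoters are shown because they are the members with a call in the docetaxel comparison of the knockout-labelled cells. The 250 bases before the transcription start are given 5′ to 3′ on the gene's strand, from RefSeq on GRCm38.p6. Ndufv3 lies at chr17:31519865-31520114 on the plus strand. Cox7a2l lies at chr17:83514334-83514583, Atp5g2 at chr15:102671048-102671297 and Uqcrh at chr4:116075071-116075320, all on the minus strand. The Cox7a2l and Atp5g2 stretches lie inside the GENCODE M21 spans of these genes given below. Their motif positions therefore hold for the RefSeq start used. Capitals mark matches, on either strand, to 5 motifs: GCGCATGCG (NRF1), CCGGAAG (ETS factors and GABPA), AAGATGGCG (YY1), CCGCCC (SP1) and ACGTG (core of the hypoxia response element).
Ndufv3: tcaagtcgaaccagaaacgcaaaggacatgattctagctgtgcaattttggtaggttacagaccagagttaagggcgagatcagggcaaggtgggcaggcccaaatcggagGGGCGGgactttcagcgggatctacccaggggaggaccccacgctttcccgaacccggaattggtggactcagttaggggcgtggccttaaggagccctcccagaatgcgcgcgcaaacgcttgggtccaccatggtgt
Cox7a2l: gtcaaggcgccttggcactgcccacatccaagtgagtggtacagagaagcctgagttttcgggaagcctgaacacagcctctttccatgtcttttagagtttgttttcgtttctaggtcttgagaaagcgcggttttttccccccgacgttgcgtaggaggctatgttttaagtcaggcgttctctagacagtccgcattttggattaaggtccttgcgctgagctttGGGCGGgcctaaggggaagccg
Atp5g2: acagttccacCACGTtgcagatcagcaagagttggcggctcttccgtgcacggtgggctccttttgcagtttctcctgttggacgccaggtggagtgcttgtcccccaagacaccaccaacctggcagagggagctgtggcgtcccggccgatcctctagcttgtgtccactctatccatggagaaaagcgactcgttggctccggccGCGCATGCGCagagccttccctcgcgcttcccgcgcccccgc
Uqcrh: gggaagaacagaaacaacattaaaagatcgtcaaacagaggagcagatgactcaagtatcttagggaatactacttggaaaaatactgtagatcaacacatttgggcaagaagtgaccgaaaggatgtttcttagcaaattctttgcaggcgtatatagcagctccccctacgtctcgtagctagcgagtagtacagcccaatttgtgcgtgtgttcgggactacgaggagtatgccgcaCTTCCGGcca

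Counted back from the start, the Atp5g2 promoter held the NRF1 motif on both strands at bases -42 to -33, where the matches overlapped because the motif is nearly its own reverse complement. It also held ACGTG at -240 to -236. The Uqcrh promoter held the ETS motif at -10 to -4, the Cox7a2l promoter held the SP1 motif at -22 to -17, and the Ndufv3 promoter held it at -139 to -134. The search also covered the 50 bases after the start, where Cox7a2l held the SP1 motif at 13 to 18, Ndufv3 held ACGTG at 12 to 16 and the SP1 motif at 23 to 28, and Atp5g2 held the SP1 motif across the start, at -4 to 2.

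Over these windows of 300 bases, 66 of the 86 members matched a promoter by symbol. The NRF1 motif was found in 8 of the 66 members (12.1%), against 1.95% of all 27025 genes with a promoter in the same table. The members were Atp5g2, Atp5k, Atp5l, Cox6a1, Ndufa11, Ndufa8, Uqcr11 and Uqcrc1. The ETS motif was found in 16 members (24.2%), against 9.93% of all genes, and the YY1 motif in 7 members (10.6%), against 1.64%. The SP1 motif was found in 26 members (39.4%), against 38.2% of all genes, and ACGTG in 16 members (24.2%), against 21.8%. These shares are descriptions of letters in the windows.

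The libraries held 28.7 to 40.8 M counts, and the members took 0.780% to 0.895% of them. After a filter on low counts, 78 members were tested among 15538 genes with edgeR's quasi-likelihood test, fitted once to all 12 libraries. P-values were adjusted over all 15538 genes by the Benjamini-Hochberg method, and a member was called at an adjusted p under 0.05. CPM values were scaled by TMM, and a log2 difference is that of the fitted model. Of the 8 epithelial carcinoma markers (Epcam, Cdh1, Krt8 and others), 7 or 8 were above 1 CPM in each group, with a summed level of 3139 to 4408 CPM, and the 5 endothelial markers summed to at most 0.799 CPM. The 8 macrophage markers, of which 3 were above 1 CPM, summed to 52.8 to 63.6 CPM in WT-DTX, 33.3 to 51.4 CPM in WT-DMSO, 55.4 to 63.9 CPM in KO-DTX and 30.7 to 40.5 CPM in KO-DMSO. The 7 fibroblast markers summed to 19.6 to 21.3 CPM in WT-DTX, 28.6 to 30.9 CPM in WT-DMSO, 12.0 to 14.6 CPM in KO-DTX and 14.9 to 18.7 CPM in KO-DMSO. The macrophage and fibroblast sums moved with docetaxel. The macrophage markers above 1 CPM were Csf1r, Cd68 and Cd14, and each of the others had at most 28 counts over all libraries. Beside Pdgfra and Col1a1, each fibroblast marker had at most 26 counts. The 7 striated muscle markers, of which Tnnt2 was the 1 above 1 CPM, summed to 68.7 to 143 CPM. The part of these markers in the results was not tested. WT-DMSO.2 stood apart in the share of counts that fell on the repeat-containing gene Gm23935, at 3.98% against 0.137% to 1.62% in the other libraries. Gene-wise deviations within a group followed GC content, with a rank correlation across 10126 genes of -0.67 in KO-DTX.1 and 0.64 in KO-DTX.2, and results that changed when each library was corrected for GC content are named below. These are bulk RNA values, in which fewer cells of a type and less RNA per cell cannot be told apart.

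The members were abundant transcripts. Of the 73 tested members with a mean of at least 5 CPM, 71 were above the median level per kilobase of exon of protein-coding genes and 43 were above the 90th percentile. Their mean levels ran from 15.6 to 1229 CPM. Per kilobase, the highest was Cox8a, a small complex IV subunit, at 529 CPM per kb, followed by Cox6a1 at 413 CPM per kb and Atp5b, the catalytic β subunit of the ATP synthase, at 290.0 CPM per kb. The lowest was Ndufb5 of complex I at 5.82 CPM per kb. The medians per complex were 28.9 CPM per kb for complex I, 42.4 for complex II, 60.6 for complex III, 94.3 for complex IV and 53.8 for complex V. Within complex I the level per kilobase spanned 38.2-fold, from Ndufb5 to Ndufb9 (222 CPM per kb), and within complex II it spanned 2.20-fold, from Sdhc (33.2 CPM per kb) to Sdhd (73.0 CPM per kb). Exon length was taken as the union of annotated exons, so a member with long unused exons is understated.

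Several complex IV subunits come in pairs of genes, of which 1 is used widely and the other in muscle, heart, testis or lung. In these cells the widely used Cox6a1, Cox6b1, Cox7a2, Cox7b and Cox8a were at 85.3 to 327 CPM on average. Their tissue-restricted partners were at or near 0. Cox6a2 had 9 counts in all 12 libraries together, Cox7b2 had 5, Cox8b had 9, Cox8c had 1, Cox6b2 had 28 and Cox7a1 had 67. Ndufa4l2, a hypoxia-induced relative of Ndufa4, had 47. These 7 and the annotated pseudogene Ndufa11b (72 counts) were the 8 members that failed the filter and were not tested.

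The summed levels overlapped between docetaxel and DMSO in wild-type cells for every complex, and in knockout-labelled cells complexes II and V did not overlap. Complex V summed to 3452 ± 163 CPM in WT-DTX and 3588 ± 91.6 CPM in WT-DMSO, and to 3501 ± 133 CPM in KO-DTX and 3724 ± 70.1 CPM in KO-DMSO. Complex I summed to 2019 ± 117 CPM in WT-DTX and 1973 ± 113 CPM in WT-DMSO, and to 2004 ± 178 CPM in KO-DTX and 2097 ± 33.0 CPM in KO-DMSO. All members together summed to 8317 ± 386 CPM in WT-DTX, 8398 ± 207 CPM in WT-DMSO, 8393 ± 462 CPM in KO-DTX and 8892 ± 208 CPM in KO-DMSO (SD, n = 3 each). Complex II summed to 419.6 to 480.3 CPM in KO-DTX and 508.7 to 521.7 CPM in KO-DMSO. For all members together, the KO-DMSO libraries, at 8697 to 9110 CPM, overlapped KO-DTX, at 7863 to 8704 CPM, by 1 library each.

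**Figure D1:**
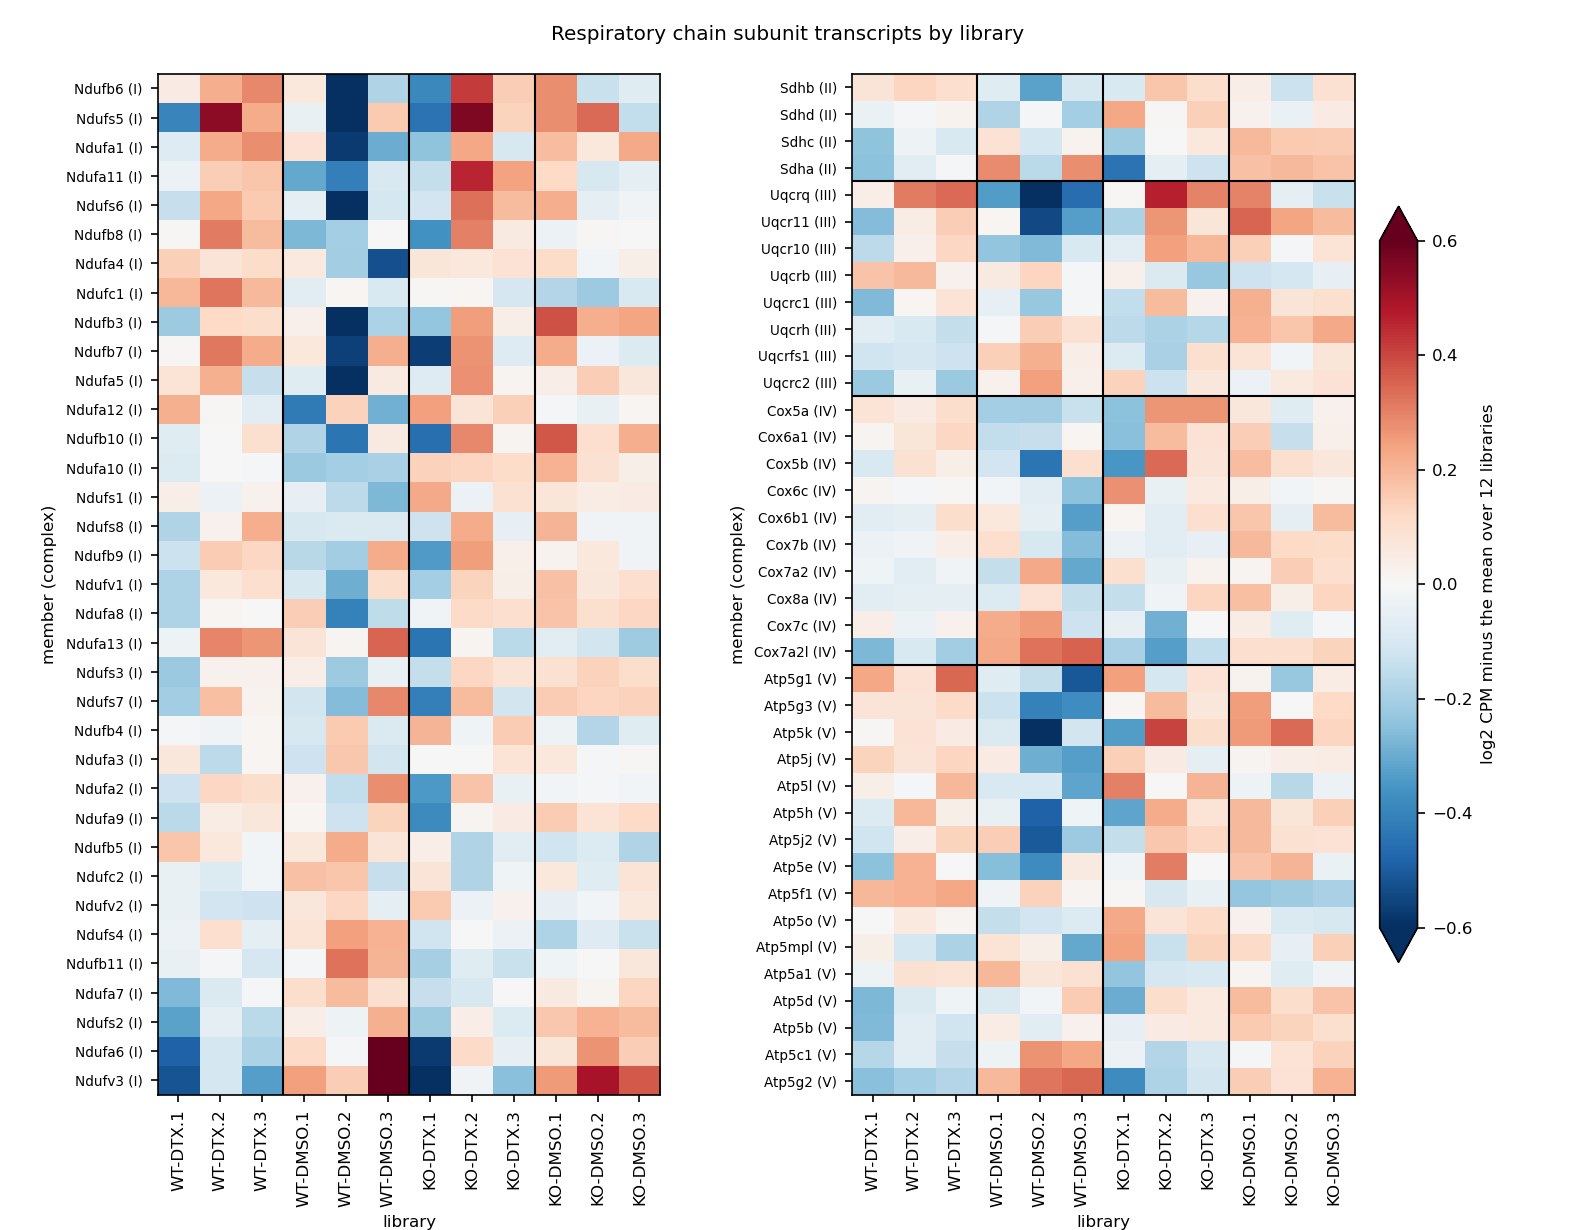
Each row is 1 of the 73 members with a mean of at least 5 CPM and each column 1 library, grouped as WT-DTX, WT-DMSO, KO-DTX and KO-DMSO. Colour gives log2 CPM minus the row's mean over the 12 libraries, with complex I on the left and complexes II to V on the right, and rows within a complex are ordered by the docetaxel difference in wild-type cells. WT-DMSO.2 was the lowest library of its group for 36 of the 73 members, KO-DMSO.2 for 40, KO-DTX.1 for 46 and WT-DTX.1 for 49.

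Docetaxel against DMSO in wild-type cells asked how the drug changed the parental genotype. Of the 78 tested members, 6 rose and 8 fell, which is 17.9%, against 28.4% of all 15538 tested genes (14.5% higher and 13.8% lower). The median log2 difference of the members was 0.09, against 0.02 over all genes. For 59 of the 78 members (75.6%) the 95% interval of the difference lay within 1.5-fold either way, against 42.3% of all genes. The median standard error was 0.109 for the members and 0.146 for all genes, which were not matched to the members in level. The libraries did not overlap for 30 members (38.5%, with 18 higher and 12 lower), against 40.5% of all genes (21.2% higher and 19.3% lower). Without WT-DMSO.1, the library with the conflicting description, 10 rose and 9 fell. Without WT-DMSO.3 or WT-DTX.3, 3 rose and 3 fell, without WT-DTX.1, 4 rose and 2 fell, and without WT-DTX.2, 3 rose and 6 fell. With each library corrected for GC content, 12 rose. By complex, 2 members of complex I rose and 3 fell of 38, none of the 4 of complex II passed the test, 1 of complex III rose and 2 fell of 8, 1 of complex IV fell of 11, and 3 of complex V rose and 2 fell of 17. Complexes were assigned by gene name in all counts, so Ndufa4 was counted in complex I.

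In complex I, Ndufv3, an accessory subunit at the NADH-oxidising tip of the complex (chr17:31520115-31531331, GENCODE M21 on GRCm38), had 30.5, 40.7 and 34.8 CPM in WT-DTX, against 51.9, 48.5 and 68.9 CPM in WT-DMSO. The groups did not overlap, and the log2 difference was -0.68 (SE 0.19, adjusted p = 0.0182). The call was lost without WT-DTX.1, WT-DTX.3 or WT-DMSO.3, with adjusted p between 0.0584 and 0.0801. Ndufa6, an accessory subunit of the LYR family that sits where the membrane arm meets the matrix arm, had 31.9, 41.6 and 39.2 CPM in WT-DTX and 48.4, 44.5 and 71.5 CPM in WT-DMSO. Its log2 difference of -0.55 (SE 0.18, adjusted p = 0.0399) rested in part on WT-DMSO.3, its highest library, without which it was -0.31 (adjusted p = 0.204). That call was also lost without WT-DTX.1, WT-DTX.2 or WT-DTX.3. Ndufa7 fell by 0.25 on the log2 scale (adjusted p = 0.0351), with 64.1, 72.5 and 76.7 CPM in WT-DTX and 83.0, 88.0 and 82.5 CPM in WT-DMSO.

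Ndufa4, which is named for complex I but is known to be part of complex IV, had 146, 139.6 and 143 CPM in WT-DTX and 138, 115 and 91.8 CPM in WT-DMSO. It rose by 0.32 on the log2 scale (SE 0.11, adjusted p = 0.0464), and the lowest WT-DTX library was just above the highest of the widely spread WT-DMSO libraries. Ndufc1, a small membrane subunit, rose by 0.29 (adjusted p = 0.0179), with 33.6, 36.6 and 33.5 CPM in WT-DTX, against 27.9, 29.6 and 27.5 CPM in WT-DMSO, and the groups did not overlap. Each of these 3 smaller calls was lost without at least 1 library: Ndufa7 without WT-DTX.1, WT-DTX.2, WT-DMSO.2 or WT-DMSO.3 (adjusted p up to 0.157), Ndufa4 without any library but WT-DMSO.1 (up to 0.176), and Ndufc1 without WT-DTX.2 or WT-DMSO.3 (up to 0.0763).

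Complex II had no call in any comparison of the edgeR fit described above, although other settings, edgeR fits among them, called Sdha and Sdhb. Sdha, the flavoprotein that oxidises succinate, had 168, 191 and 198 CPM in WT-DTX and 243, 178 and 242 CPM in WT-DMSO. The ranges overlapped and the difference of -0.25 (SE 0.12, adjusted p = 0.146) did not pass, but without WT-DMSO.2, its lowest WT-DMSO library, it was -0.38 (adjusted p = 0.0213). In knockout-labelled cells it had 147, 192 and 183 CPM in KO-DTX and 225, 229 and 225 CPM in KO-DMSO, without overlap, and the log2 difference of -0.38 (SE 0.12, adjusted p = 0.0523) stood just outside the threshold. It passed under 10 of 15 other settings, DESeq2 and limma-voom among them, which kept every library or left out WT-DMSO.2 and KO-DTX.3 together, with log2 differences from -0.42 to -0.37. Sdhb, the iron-sulphur subunit, had 84.4, 87.6 and 85.7 CPM in WT-DTX, against 76.2, 64.1 and 74.97 CPM in WT-DMSO, again without overlap and just outside the threshold with a log2 difference of 0.26 (SE 0.09, adjusted p = 0.0524). It passed under 7 of the same 15 settings, with adjusted p of 0.042 by DESeq2, 0.0498 by limma-voom and 0.0114 with GC correction. The membrane anchors Sdhc and Sdhd had log2 differences of -0.12 and 0.12 in wild-type cells and of -0.21 and 0.12 in knockout-labelled cells.

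In complex III, Uqcrq, a small subunit that binds the cytochrome b core (chr11:53427922-53430831), had 55.2, 66.8 and 68.1 CPM in WT-DTX, against 42.6, 31.6 and 39.2 CPM in WT-DMSO. Every WT-DTX library was above every WT-DMSO library, and the log2 difference of 0.75 (SE 0.15, adjusted p = 0.00245), a 1.68-fold increase, was the largest rise among the 78 members. It was called without any 1 of the 6 libraries, with adjusted p up to 0.0144. Uqcrfs1, the Rieske iron-sulphur protein that hands electrons to cytochrome c1, fell by 0.25 (SE 0.08, adjusted p = 0.0371), with 101, 102 and 101 CPM in WT-DTX and 121, 127 and 113 CPM in WT-DMSO. Uqcrc2, a core protein on the matrix side, fell by 0.26 (SE 0.09, adjusted p = 0.0464), with 83.8, 94.6 and 83.8 CPM in WT-DTX and 99.5, 116 and 99.7 CPM in WT-DMSO. The Uqcrfs1 call was lost without any library but WT-DMSO.3 (adjusted p up to 0.113) and the Uqcrc2 call without any but WT-DTX.2 and WT-DMSO.1 (up to 0.169). An exon of Uqcrc2 shares 504 bases with Pdzd9 on the opposite strand, which had 56 counts in all. Uqcrh, the hinge protein that helps cytochrome c dock, had 70.8, 69.6 and 67.3 CPM in WT-DTX and 73.6, 82.1 and 79.1 CPM in WT-DMSO. Its log2 difference of -0.18 (SE 0.07, adjusted p = 0.0741) did not pass. Other settings called Uqcrh lower here. These were DESeq2 (adjusted p = 0.0323), edgeR with GC correction (0.030), with a replicate block and GC correction (0.0354), and without WT-DMSO.1 (0.030).

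Among the members assigned to complex IV by name, the single call was Cox7a2l (chr17:83501918-83517330). Cox7a2l is known as a supercomplex assembly factor that links complexes III and IV. It had 119, 135 and 124 CPM in WT-DTX, against 168, 179.8 and 183 CPM in WT-DMSO. The lowest WT-DMSO library was above the highest WT-DTX library, and the log2 difference was -0.49 (SE 0.08, adjusted p = 0.000521). The call held without any 1 of the 6 libraries, with adjusted p up to 0.00429. Its relative Cox7a2, the isoform built into complex IV itself, had 83.5, 81.2 and 83.7 CPM in WT-DTX and 76.8, 99.3 and 68.7 CPM in WT-DMSO, a log2 difference of 0.02 with a 95% interval of -0.21 to 0.26. For Cox8a, the most abundant member per kilobase, the difference was -0.02 with an interval of -0.20 to 0.17.

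In complex V the calls centred on subunit c, the membrane protein whose ring turns as protons pass. Atp5g1, Atp5g2 and Atp5g3 encode the same mature protein with different import sequences. Atp5g2 (chr15:102662864-102672352) had 129, 134 and 137 CPM in WT-DTX, against 176, 193 and 196 CPM in WT-DMSO. It fell without overlap, by 0.50 on the log2 scale (SE 0.08, adjusted p = 0.000741). Atp5g3 (chr2:73908447-73911326) had 153, 153 and 157 CPM in WT-DTX, against 133, 109.5 and 112 CPM in WT-DMSO, and rose by 0.39 (SE 0.09, adjusted p = 0.00684). Both calls held without any 1 of the 6 libraries. Atp5g1 (chr11:96068852-96075670) had 57.7, 52.2 and 62.3 CPM in WT-DTX, against 46.7, 44.4 and 34.5 CPM in WT-DMSO, and rose by 0.46 (SE 0.13, adjusted p = 0.0157), a call that was lost without WT-DTX.3 (adjusted p = 0.0743) or WT-DMSO.3 (0.0701).

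As shares of the counts of the 3 subunit c genes, Atp5g2 took 38.7 ± 0.74% in WT-DTX and 54.1 ± 4.0% in WT-DMSO (SD, n = 3 each). Atp5g3 took 44.7 ± 0.56% in WT-DTX and 33.9 ± 3.0% in WT-DMSO, and Atp5g1 took 16.6 ± 1.1% in WT-DTX and 12.0 ± 1.7% in WT-DMSO. Atp5g2 was the most abundant of the 3 in every WT-DMSO library and Atp5g3 in every WT-DTX library. In the knockout-labelled cells Atp5g2 took 39.0 ± 2.2% in KO-DTX and 45.4 ± 1.7% in KO-DMSO, Atp5g3 took 45.6 ± 2.0% in KO-DTX and 42.0 ± 1.7% in KO-DMSO, and Atp5g1 took 15.4 ± 2.4% in KO-DTX and 12.6 ± 0.58% in KO-DMSO. The Atp5g2 share was lower in every docetaxel library than in any DMSO library of the same genotype. A single share compared over 3 libraries against 3 cannot give an exact permutation p under 0.10, so no test is given for the shares.

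**Figure D2:**
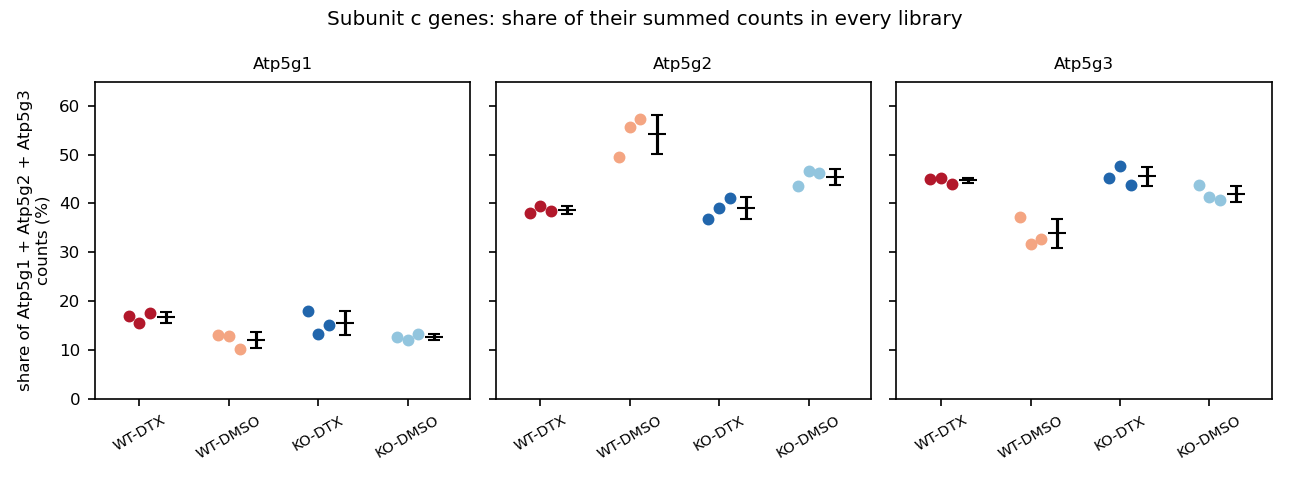
Each panel is 1 of the 3 subunit c genes, and each point is its share (%) of the summed counts of Atp5g1, Atp5g2 and Atp5g3 in 1 library, with the mean and SD of 3 libraries beside it. Atp5g2 shares were 38.1% to 39.5% in WT-DTX and 49.6% to 57.2% in WT-DMSO, and 36.7% to 41.2% in KO-DTX and 43.5% to 46.7% in KO-DMSO.

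The other calls of complex V were smaller. Atp5c1, the central γ shaft, fell by 0.29 (SE 0.09, adjusted p = 0.0245), with 222, 239 and 228 CPM in WT-DTX and 245, 302 and 294 CPM in WT-DMSO. Atp5j, the coupling factor F6 of the peripheral stalk, rose by 0.30 (SE 0.10, adjusted p = 0.0346), with 88.7, 85.3 and 88.5 CPM in WT-DTX and 83.7, 66.0 and 64.3 CPM in WT-DMSO. The Atp5c1 call was lost without WT-DTX.1, WT-DTX.3, WT-DMSO.2 or WT-DMSO.3 (adjusted p up to 0.0836), and the Atp5j call without any library but WT-DMSO.1 (up to 0.138). An exon of Atp5j shares 175 bases with Gabpa on the opposite strand, and no source used here says whether counting used strand, so reads of the pair may be shared. The catalytic Atp5b had 1019, 1171 and 1128 CPM in WT-DTX and 1262, 1174 and 1247 CPM in WT-DMSO, a log2 difference of -0.15 (SE 0.08, adjusted p = 0.181) that did not pass. When the 6 wild-type libraries were fitted alone, Ndufa7, Ndufa4, Ndufc1, Uqcrfs1, Uqcrc2, Atp5c1 and Atp5j were no longer called, with adjusted p from 0.059 to 0.119.

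**Figure D3:**
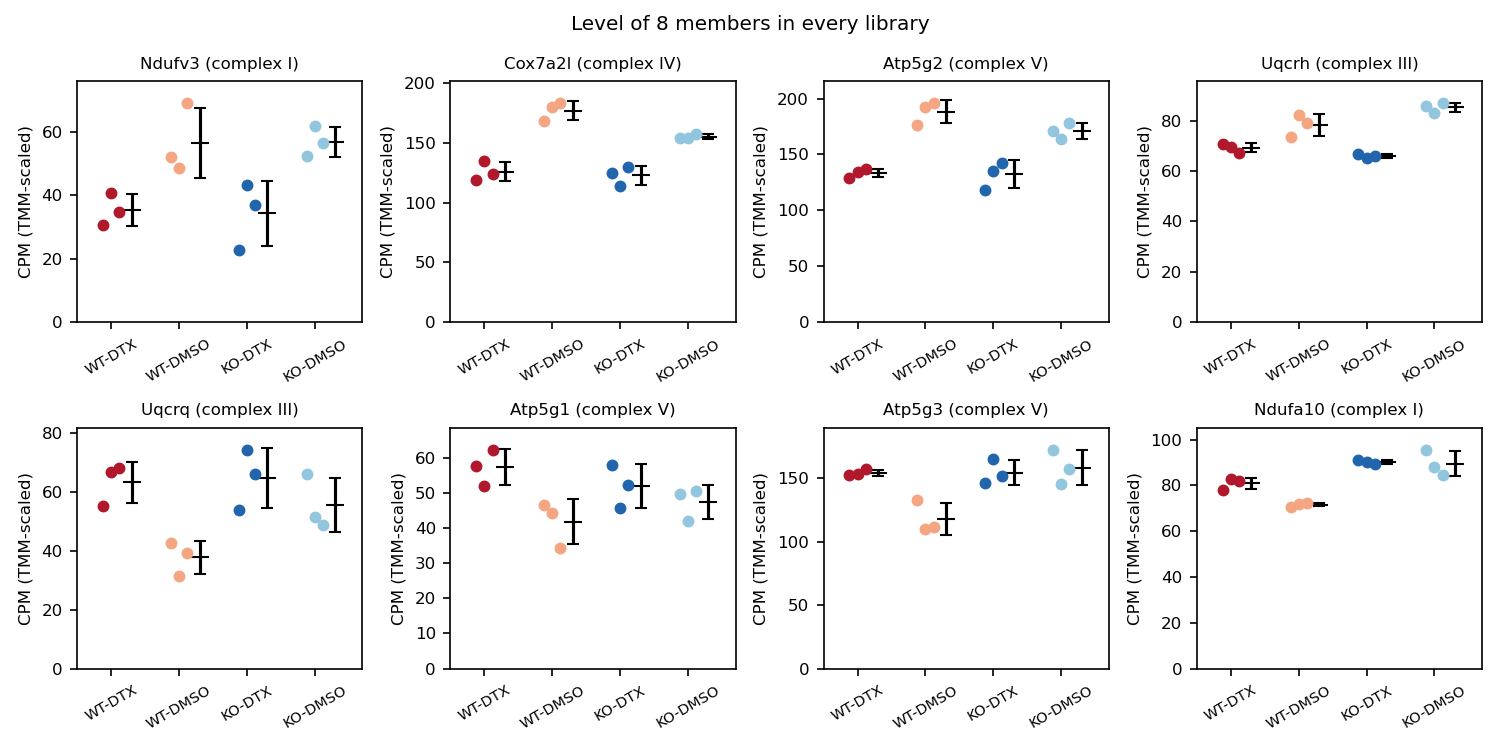
Points are TMM-scaled CPM of 8 members in each library, with the mean and SD of 3 libraries beside each group. The axes start at 0. Ndufv3, Cox7a2l and Atp5g2 were lower in every docetaxel library than in any DMSO library of the same genotype, and Uqcrq was higher in WT-DTX (55.2 to 68.1 CPM) than in WT-DMSO (31.6 to 42.6 CPM).

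Docetaxel against DMSO in knockout-labelled cells gave fewer calls. Of the 78 members, none rose and 4 fell, which is 5.13%, against 16.1% of all tested genes (9.09% higher and 7.0% lower). At an unadjusted p under 0.05 there were 12 members (15.4%) by edgeR, against 30.4% of all tested genes, and DESeq2 called 2 higher and 6 lower. The libraries did not overlap for 19 members (24.4%, with 5 higher and 14 lower), against 37.7% of all genes (19.2% higher and 18.5% lower). The median log2 difference of the members was -0.05, against 0.00 over all genes. Without KO-DTX.1, 1 rose and 3 fell, and without KO-DTX.2, 1 rose and 6 fell. The 4 members belonged to complexes I, III, IV and V, with 1 each.

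Ndufv3 had 22.9, 43.1 and 36.8 CPM in KO-DTX, against 52.2, 61.7 and 56.4 CPM in KO-DMSO. The groups did not overlap, although KO-DTX.1 was far below the other 2 libraries of its group, and the log2 difference was -0.73 (SE 0.19, adjusted p = 0.0201). The call was lost without KO-DTX.1 (adjusted p = 0.0535), KO-DMSO.2 (0.0798) or KO-DMSO.3 (0.0554). Uqcrh had 66.5, 65.1 and 65.9 CPM in KO-DTX, against 85.8, 83.2 and 86.8 CPM in KO-DMSO, and fell by 0.37 (SE 0.07, adjusted p = 0.00269). Its libraries within each group lay within 4 CPM of each other. Cox7a2l had 125, 114 and 129 CPM in KO-DTX, against 154, 154 and 157 CPM in KO-DMSO, and fell by 0.34 (SE 0.08, adjusted p = 0.00948). Atp5g2 had 119, 136 and 143 CPM in KO-DTX, against 171, 164 and 178 CPM in KO-DMSO, and fell by 0.37 (SE 0.08, adjusted p = 0.00805). The calls of Uqcrh, Cox7a2l and Atp5g2 held without any 1 of the 6 libraries, but Atp5g2 was not called when each library was corrected for GC content, where its log2 difference was -0.15 (adjusted p = 0.292).

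The members that rose in wild-type cells had smaller differences here. Uqcrq had 54.1, 74.4 and 66.0 CPM in KO-DTX and 66.1, 51.7 and 49.0 CPM in KO-DMSO, with overlap and a log2 difference of 0.22 (SE 0.15, adjusted p = 0.338). Atp5g3 had 146, 165 and 152 CPM in KO-DTX and 172, 145 and 157 CPM in KO-DMSO, a difference of -0.04 with a 95% interval of -0.23 to 0.16. For Atp5g1 the difference was 0.13 with an interval of -0.14 to 0.40, and for Ndufa4 it was 0.03 with an interval of -0.21 to 0.27.

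**Figure D4:**
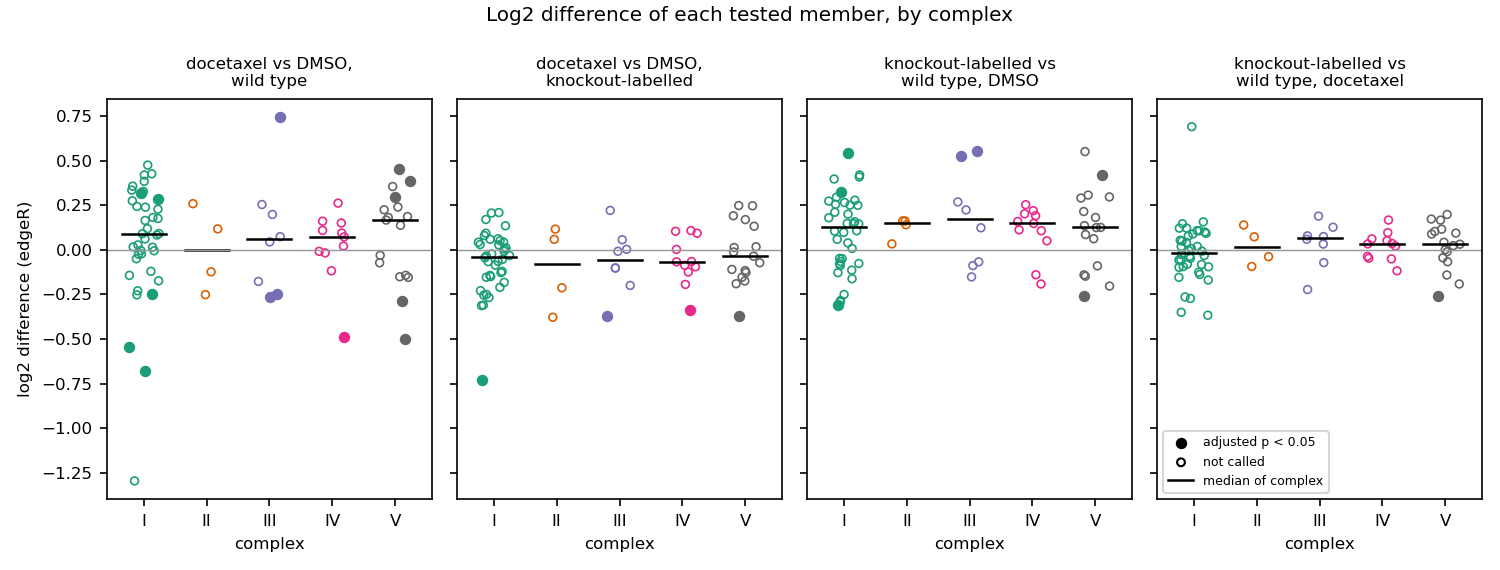
Points are the log2 differences of the 78 tested members in 4 comparisons, by complex, and filled points are calls at an adjusted p under 0.05. The black line is the median of each complex. In wild-type cells 6 filled points lie above 0 and 8 below, and in knockout-labelled cells all 4 filled points of the docetaxel comparison lie below 0. The open point at -1.30 is Ndufb4c, an annotated pseudogene with under 1 CPM in every library.

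The docetaxel comparisons of the 2 genotypes share no library and can be set side by side. Ndufv3, Cox7a2l and, without GC correction, Atp5g2 fell in both, which is 37.5% of the 8 members that fell in wild-type cells and 75% of the 4 that fell in knockout-labelled cells. With GC correction Uqcrh was called lower in both. Across the 73 members with a mean of at least 5 CPM, the 2 genotypes' log2 differences had correlations of 0.63 (Pearson) and 0.51 (Spearman). Across all 10184 genes over the same floor of 5 CPM, the Pearson correlation was 0.70. These genes were not matched to the members in level. The median level was 49.6 CPM per kb for the members and 8.52 CPM per kb for protein-coding genes over the floor. The correlations are across genes, which are not independent replicates. The SD of the log2 differences across members was 0.26 with docetaxel in wild-type cells and 0.17 in knockout-labelled ones, against 0.43 and 0.38 across the same 10184 genes. The sign was shared by 45 of the 78 members, and 25 were above 0 in wild-type cells and below 0 in knockout-labelled cells, against 8 the other way.

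**Figure D5:**
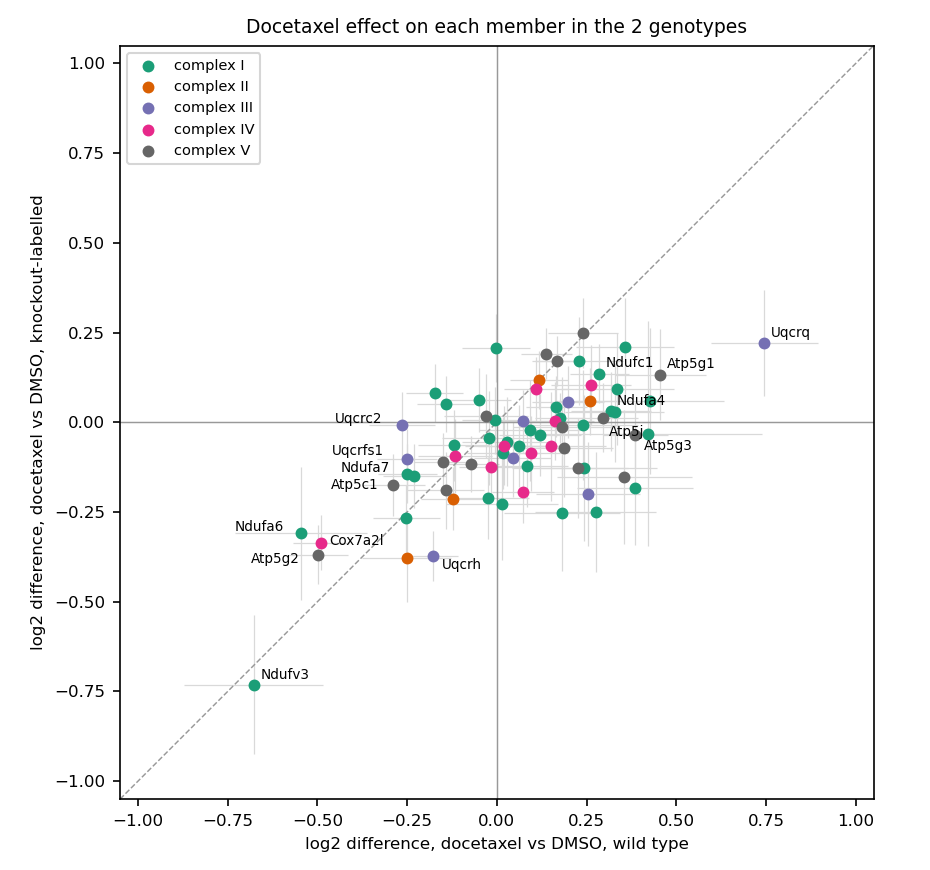
Each point is 1 of 73 members, with its log2 difference between docetaxel and DMSO in wild-type cells on the x axis and in knockout-labelled cells on the y axis. Grey bars are standard errors, the dashed line marks equal differences, and labels name the members called in either genotype. Ndufv3, Cox7a2l and Atp5g2 lie below 0 on both axes, and Uqcrq lies at 0.75 on the x axis and 0.22 on the y axis.

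The interaction of genotype and docetaxel tested whether those differences were unequal. None of the 78 members was called by edgeR, against 0.109% of all tested genes (0.0901% higher and 0.0193% lower), and none by DESeq2. At an unadjusted p under 0.05 there were 7 members (8.97%), against 11.03% of all tested genes. The smallest p was that of Atp5g3, whose docetaxel difference was lower by 0.42 on the log2 scale in knockout-labelled cells (SE 0.13, adjusted p = 0.301), and the next was that of Uqcrq (-0.52, SE 0.21, adjusted p = 0.391). Without WT-DMSO.1, the library with the conflicting description, Atp5g3 was called (-0.51, adjusted p = 0.0375). The median interaction over the members was -0.12, against 0.00 over all genes. For Ndufv3, Cox7a2l and Atp5g2 the interaction was -0.05 (-0.64 to 0.53), 0.15 (-0.08 to 0.39) and 0.13 (-0.12 to 0.38), with 95% intervals in parentheses.

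Knockout-labelled against wild-type cells under DMSO asked how the genotypes differed without drug. Of the 78 members, 5 rose and 2 fell, which is 8.97%, against 15.8% of all tested genes (6.60% higher and 9.20% lower). The median log2 difference of the members was 0.14, against 0.01 over all genes. The libraries did not overlap for 26 members (33.3%, with 18 higher and 8 lower), against 32.6% of all genes (15.7% higher and 16.9% lower). Without WT-DMSO.1, 13 rose and 3 fell. Without WT-DMSO.2, 4 rose and none fell, and without WT-DMSO.3, 3 rose and 2 fell. Without KO-DMSO.1, KO-DMSO.2 or KO-DMSO.3, 2 to 3 rose and at most 1 fell. With GC correction 10 rose. This comparison shares the WT-DMSO libraries with the docetaxel comparison of wild-type cells, and Uqcrq and Atp5g3 were called higher in both.

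Ndufa10, an accessory subunit of complex I, had 95.5, 88.1 and 84.7 CPM in KO-DMSO, against 70.7, 71.8 and 72.1 CPM in WT-DMSO. The groups did not overlap and the log2 difference was 0.32 (SE 0.07, adjusted p = 0.00701). Atp5g3 had 172, 145 and 157 CPM in KO-DMSO, against 133, 109.5 and 112 CPM in WT-DMSO, a log2 difference of 0.42 (SE 0.09, adjusted p = 0.00673). These were the 2 members called without any 1 of the 6 libraries. When WT-DMSO.2 and KO-DTX.3, each the highest of its group in Gm23935, were both left out, Ndufa10 was the single call (Atp5g3 adjusted p = 0.0539). WT-DMSO.1, with a Gm23935 share of 1.62%, stayed in.

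Uqcrq had 66.1, 51.7 and 49.0 CPM in KO-DMSO and 42.6, 31.6 and 39.2 CPM in WT-DMSO, a log2 difference of 0.56 (SE 0.15, adjusted p = 0.0206). Uqcr11, the smallest complex III subunit, had 104, 96.0 and 93.0 CPM in KO-DMSO and 82.2, 56.0 and 64.8 CPM in WT-DMSO, a difference of 0.53 (SE 0.15, adjusted p = 0.0247). Ndufb3, of the membrane arm of complex I, had 48.4, 43.2 and 43.8 CPM in KO-DMSO and 37.9, 22.3 and 32.6 CPM in WT-DMSO, a difference of 0.54 (SE 0.17, adjusted p = 0.0418). In each of these 3 genes WT-DMSO.2 was the lowest of the 12 libraries, and without it the adjusted p was 0.0863 for Uqcrq, 0.103 for Uqcr11 and 0.142 for Ndufb3. The Uqcrq call was also lost without KO-DMSO.1 (adjusted p = 0.118), and the Uqcr11 and Ndufb3 calls without any library but WT-DMSO.1. The part of Gm23935 or of GC content in these differences was not tested beyond the alternatives given.

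The 2 members that fell were Ndufs4, an assembly-critical accessory subunit of complex I, and Atp5f1, the b subunit of the stator of the ATP synthase. Ndufs4 had 36.8, 39.7 and 38.1 CPM in KO-DMSO, against 44.3, 49.6 and 48.4 CPM in WT-DMSO, a log2 difference of -0.31 (SE 0.08, adjusted p = 0.0181). Atp5f1 (chr3:105942698-105960099) had 145, 148 and 149 CPM in KO-DMSO, against 169, 188 and 173 CPM in WT-DMSO, a difference of -0.26 (SE 0.07, adjusted p = 0.0217). Neither was called after GC correction, with adjusted p of 0.064 for Ndufs4 and 0.342 for Atp5f1. The Ndufs4 call was lost without WT-DMSO.2, KO-DMSO.1 or KO-DMSO.3 (adjusted p up to 0.0848) and the Atp5f1 call without WT-DMSO.2 or any KO-DMSO library (up to 0.0903). An exon of Atp5f1 shares 190 bases with Wdr77 on the opposite strand, so reads of this pair may be shared.

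Knockout-labelled against wild-type cells after docetaxel gave 1 call among the 78 members, which is 1.28%, against 5.89% of all tested genes (2.5% higher and 3.39% lower). Atp5f1 had 172, 160.1 and 166 CPM in KO-DTX, against 197, 197 and 201 CPM in WT-DTX, and fell by 0.26 (SE 0.07, adjusted p = 0.0445). The libraries did not overlap for this gene or for 7 other members (10.3% in all, with 4 higher and 4 lower), against 25.1% of all genes (11.9% higher and 13.2% lower). The Atp5f1 call was lost without any 1 of the 6 libraries, with adjusted p from 0.0534 to 0.179, and also with GC correction (0.0689), length correction (0.066) and no filter on low counts (0.197). With GC correction the calls were Ndufa13 (-0.34) and Ndufc1 (-0.29) in its place. The median log2 difference of the members was 0.02, against 0.01 over all genes. Uqcrq and Atp5g3, which were higher in knockout-labelled cells under DMSO, had differences of 0.03 (-0.28 to 0.35) and 0.00 (-0.19 to 0.20) after docetaxel, with 95% intervals in parentheses.

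Outside the rule, 2 carriers at the centre of the chain moved with docetaxel in wild-type cells. Cycs, which encodes the somatic cytochrome c that carries electrons from complex III to complex IV, had 47.1, 48.9 and 49.3 CPM in WT-DTX, against 26.7, 12.4 and 16.9 CPM in WT-DMSO. It rose by 1.38 on the log2 scale (SE 0.20, adjusted p = 0.000263), a 2.59-fold increase. In knockout-labelled cells it had 45.6, 53.6 and 46.6 CPM in KO-DTX, against 27.2 to 33.8 CPM in KO-DMSO, and rose by 0.68 (SE 0.19, adjusted p = 0.0265). Cyc1, cytochrome c1 of complex III, had 91.2, 104.7 and 102.2 CPM in WT-DTX, against 80.5, 63.5 and 71.3 CPM in WT-DMSO, and rose by 0.47 (SE 0.10, adjusted p = 0.00446). With docetaxel in knockout-labelled cells Cyc1 was not called. Both genes were also called higher in KO-DMSO than in WT-DMSO, a comparison that shares the WT-DMSO libraries. There the log2 difference was 0.70 for Cycs (SE 0.20, adjusted p = 0.0256) and 0.45 for Cyc1 (SE 0.10, adjusted p = 0.00947). Cox4i1, a structural subunit of complex IV, had a difference of -0.10 (adjusted p = 0.577) in wild-type cells. Of the 6 tested genes of this list, 2 rose and none fell in wild-type cells, and 1 rose and none fell in knockout-labelled cells.

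Factors that assemble the complexes were counted from fixed lists, beside 14.5% of all tested genes called higher and 13.8% lower with docetaxel in wild-type cells, and 9.09% and 7.0% in knockout-labelled cells. Of 16 tested assembly factors of complex I, 5 rose and 3 fell with docetaxel in wild-type cells, and 3 rose and none fell in knockout-labelled cells. Ndufaf4 rose in both, by 0.95 (SE 0.17, adjusted p = 0.00137) in wild-type cells and 1.02 (SE 0.17, adjusted p = 0.00105) in knockout-labelled ones. Of 20 tested factors of complex IV, 4 rose and 1 fell in wild-type cells, and 2 rose and none fell in knockout-labelled cells. Cox18, which inserts a mitochondrially encoded subunit into the membrane, rose in both, by 0.68 (SE 0.11, adjusted p = 0.000577) and 0.54 (SE 0.11, adjusted p = 0.00395). Of 6 factors of complex III, 1 fell in wild-type cells, Bcs1l, which inserts the Rieske protein, with a log2 difference of -0.47 (SE 0.09, adjusted p = 0.00156), and none passed in knockout-labelled cells.

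The 13 subunits encoded by mitochondrial DNA had a median log2 difference of 0.35 with docetaxel in wild-type cells, where none was called, and of 0.55 in knockout-labelled cells, where mt-Nd6 rose by 0.49 (SE 0.16, adjusted p = 0.0488). The mitochondrial share of counts varied between libraries of 1 group, from 0.538% to 0.953% in WT-DTX and 0.377% to 0.676% in WT-DMSO, and from 0.525% to 1.16% in KO-DTX and 0.519% to 0.596% in KO-DMSO.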

How the data were processed

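Per the labels' protocols, ribosomal RNA was removed from total RNA with RNase H, and libraries were primed with random hexamers and read in pairs on a NovaSeq instrument. Subread's featureCounts 1.4.6-p5, STAR 2.5.1a and bcl2fastq are named in the submitters' processing notes. No source used here gives the build, the annotation or the strand setting. The authors deposited raw read counts per gene symbol, with 1 column per library. The members and lists were chosen with earlier results of these data known.

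The table held 40757 entries, of which 351 exact repeats (0.907% of counts) were dropped. Counts were filtered with filterByExpr, scaled by TMM and tested with edgeR 4.0.16 in R 4.3.3, with 1 mean per group over 12 libraries and 5 two-sided contrasts. P-values were adjusted by Benjamini-Hochberg over 15538 genes and called at 0.05. A standard error is the absolute log2 difference divided by the square root of F, and 95% intervals use the fit's t distribution. The common biological coefficient of variation was 13.2%. Gene positions, exon lengths and GC content came from GENCODE M21 on GRCm38 by symbol, and promoters from RefSeq on GRCm38.p6.

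Named members were, per complex and contrast, the 3 called with the largest difference and at least 5 CPM. To these were added all of complex II, isoform families, the extremes per kilobase, the 2 smallest interaction p-values, the filtered members and up to 2 called genes per list. The other called members, Cycs and Cyc1 in both genotypes, and Cox4i1 were named after their values were seen. Alternatives were DESeq2 1.42.0, limma-voom (limma 3.58.1), other scalings and filters, GC and length correction, a replicate block and the omission of libraries. Counts of libraries within a group differed by 7.79 to 155 in chi-square per degree of freedom, far above sampling noise.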

Additional observations from a re-analysis of the deposited data

How the results depend on the processing

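The members that the naming rule chose gave 3300 values under the alternatives. Of these, 3157 stayed on the same side of the threshold, 90 lost a call, 53 gained one and no call reversed its direction. The called members outside that rule, Ndufa7, Ndufc1, Atp5c1 and Atp5j, lost a call in 25 further cases. For docetaxel in wild-type cells, the members called higher were 12 with no filter on low counts, 10 with at least 1 CPM in 3 libraries, 12 with GC correction and 13 with length correction, against 6. The members called lower were 5 with no filter, 4 with the 6 libraries alone and 5 without both Gm23935-rich libraries (WT-DMSO.2 and KO-DTX.3, each the highest of its group), against 8. That last setting kept WT-DMSO.1, where Gm23935 took 1.62% of counts, against 1.51% in KO-DTX.3. With 1 library left out the higher calls ran from 3 to 10, the lower calls from 2 to 9 and the median log2 difference from 0.034 to 0.12.

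For docetaxel in knockout-labelled cells, the higher calls were 2 with DESeq2 and 1 each with at least 1 CPM in 3 libraries, GC correction and length correction, against 0. The median was 0.039 with length correction, against -0.05, so its sign depended on that setting. With 1 library left out the higher calls ran from 0 to 1, the lower calls from 3 to 6 and the median from -0.11 to -0.01.

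For the genotypes under DMSO, the higher calls were 10 with no filter, 10 with GC correction and 1 without both Gm23935-rich libraries, against 5. The lower calls were 0 with no filter, 1 with the 6 libraries alone and 0 without both Gm23935-rich libraries, against 2. With 1 library left out, they ran from 2 to 13 and from 0 to 3. For the genotypes after docetaxel, the lower calls were 0 with RLE scaling, the 6 libraries alone or without both Gm23935-rich libraries, 2 with DESeq2 (Atp5f1 and Ndufc1) or GC correction (Ndufa13 and Ndufc1), and 0 without any 1 library, against 1. For the interaction, 0 to 1 members were called lower with 1 library left out. The cause of these changes was not tested.

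Same-numbered libraries did not deviate together in every pair (correlations from -0.40 to 0.68), so the numbers were not taken as pairs. With replicate number as a block, 6 members rose and 8 fell with docetaxel in wild-type cells, 0 and 4 in knockout-labelled cells, 4 and 2 between genotypes under DMSO, and 0 and 0 after docetaxel. With the block and GC correction together, the calls were 10 higher in wild-type cells, 1 higher in knockout-labelled cells, 8 higher between genotypes under DMSO and 2 lower after docetaxel. In no comparison did every library correlate best with its own number.

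Members with few counts, such as the 8 that failed the filter, cannot show a difference at this depth.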

Other observations

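Other mitochondrial gene groups were counted from lists, with no test of the list. In wild-type cells, of 23 tested genes of mitochondrial protein import, 10 rose and none fell with docetaxel, against 14.5% and 13.8% of all tested genes, with a median log2 difference of 0.36. Timm10, an intermembrane chaperone for carrier proteins, rose by 0.74 (SE 0.13, adjusted p = 0.00131) in wild-type cells and by 0.44 (SE 0.13, adjusted p = 0.0374) in knockout-labelled cells, where 3 of the 23 rose. Of 76 tested mitochondrial ribosomal proteins, 19 rose and 3 fell in wild-type cells, led by Mrps11 (0.98, SE 0.15, adjusted p = 0.000397), and 4 rose and 1 fell in knockout-labelled cells. Of all tested genes, 9.09% rose and 7.0% fell with docetaxel in knockout-labelled cells. Between knockout-labelled and wild-type cells under DMSO, the import list held 3 higher calls and the ribosomal list 13 higher and 1 lower. Of all tested genes, 6.60% were higher and 9.20% lower in this comparison, which shares the WT-DMSO libraries.

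Among 17 enzymes of pyruvate oxidation and the citrate cycle, 3 rose and 4 fell in wild-type cells and 2 rose and 4 fell in knockout-labelled cells, where 9.09% and 7.0% of all tested genes did. Idh2, the mitochondrial NADP-dependent isocitrate dehydrogenase, fell in both, with log2 differences of -0.53 (SE 0.13, adjusted p = 0.00933) and -0.51 (SE 0.13, adjusted p = 0.0185). Of 17 tested regulators of respiratory genes, Pprc1, a coactivator of the PGC-1 family, rose by 0.67 (SE 0.12, adjusted p = 0.00114) in wild-type cells, and Tfb1m, a mitochondrial ribosomal RNA methyltransferase, had a difference of -0.60 (SE 0.14, adjusted p = 0.00641). The other 15 did not pass, and none of the 17 passed in knockout-labelled cells.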
